A study of Zea mays with 4 samples.

Results

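The maize gene zrp4 (LOC542706) encodes an O-methyltransferase, and is 1 of 1108 named genes on the array, read by 1 of 17555 maize probe sets. It was selected by its symbol and because it differed strongly between the maize lines Cm489 and F98908 in these same values, so its own difference is given as a description with no test. No other probe set carries its sequence cluster number. RefSeq lists the name zrp4 for 2 genes, the other being LOC100147731, also called Bx7, an O-methyltransferase of benzoxazinoid synthesis, which lies 147 gene positions away. The probe set is annotated to LOC542706 alone, and LOC100147731 is not analysed here.

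Each line was measured on 2 Affymetrix arrays, in aerial material of plants aged 21 days with 7 leaves. The plants grew in potting compost at a humidity of 50%, with days of 16 h and nights of 8 h. No treatment, transgene or mutant allele is given for either line. The work concerned the maize cell wall and the digestibility of maize lines, and the labels give neither the plants pooled per array nor a digestibility value. Both F98908 arrays carry the same extract label and the same RNA amount of 213 ug, while the Cm489 arrays have labels of their own (177 and 170 ug), and p-values measure the spread between these arrays, which may be technical.

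O-methyltransferases move a methyl group from S-adenosylmethionine to a hydroxyl group of a small molecule. In plants their substrates include the phenolic acids and alcohols of lignin and suberin, flavonoids and defence compounds. The zrp4 transcript was first described in maize roots, where it was found mainly around the endodermis, and a part in suberin synthesis was proposed. Suberin is the aliphatic and phenolic polymer that seals the walls of that layer.

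On the log2 scale of the deposited values, zrp4 stood at 10.99 on Cm489 array 1 and 10.78 on Cm489 array 2, and at 3.14 on F98908 array 1 and 2.48 on F98908 array 2. Both Cm489 arrays were far above both F98908 arrays, and the lines did not overlap. Non-overlap in this direction was found for 35.4% of the 11262 tested probe sets, so it says little alone. The mean was 10.88 ± 0.15 in Cm489 and 2.81 ± 0.46 in F98908 (SD, n = 2 arrays each), a difference of -8.07 ± 0.27 (SE, log2, F98908 minus Cm489). This SE, like those given below, is limma's moderated one. It draws on the spread of the other tested probe sets and does not follow from the SDs of zrp4 alone. Because the F98908 mean lay under log2 4, the level a probe set had to exceed to be tested, the fold is a bound, computed against log2 4: zrp4 was at least 118-fold higher in Cm489 than in F98908. In bulk material, fewer cells with the transcript and less transcript per cell cannot be told apart. The signal comes from 1 probe set, and whether its probes match the sequence of both lines equally well was not tested.

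**Figure D1:**
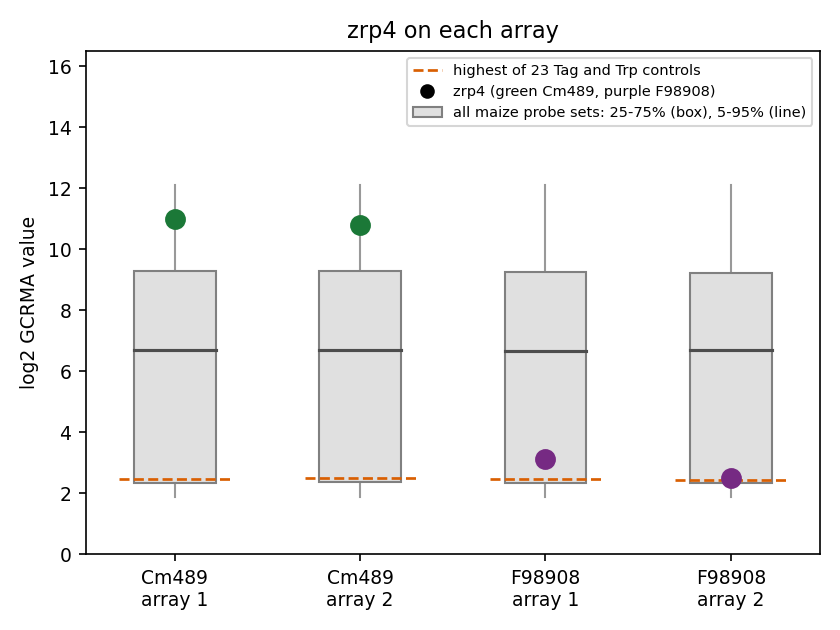
The log2 value of zrp4 (circles) on each of the 4 arrays, over the spread of all maize probe sets on that array (box, lower to upper quartile with the median; line, reaching farther into both tails). The dashed bar is the highest of 23 control probe sets named Tag or Trp; zrp4 lies at 10.99 and 10.78 in Cm489 and at 3.14 and 2.48 in F98908.

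The F98908 values of zrp4 lay near background. The highest of the 23 Tag and Trp controls, which are made to have no plant target, was 2.47 on F98908 array 1 and 2.45 on array 2. The zrp4 value was thus 3.14 against 2.47 on the first array and 2.48 against 2.45 on the second. Of 66 probe sets for reporter constructs, 65 were under log2 4 on every array. With reporter values over log2 4 left out array by array, the highest was 3.21 and 3.12 on the F98908 arrays. The F98908 values of zrp4 lay under 3.21 and 3.12, within the range of those dim reporter values.

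The F98908 arrays differed by 0.652 for zrp4, a wide gap for a dim probe set. The median absolute difference between those arrays was 0.00943 over the 4582 probe sets with an F98908 mean between log2 2 and 4, and 97.3% of them differed by less than zrp4. In Cm489 the gap of 0.214 was ordinary for its level: the median was 0.190 over 2166 probe sets between log2 10 and 12, and 56.5% differed by less. Both gaps were smaller than the difference of -8.07 between the lines. Because zrp4 was selected for that difference, this follows from the selection and is no test of it.

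Over all tested probe sets limma called 15.3% between the lines at an adjusted p under 0.05, 7.27% higher and 8.02% lower in F98908, and the median difference was -0.03. These 819 higher and 903 lower calls became 248 higher and 170 lower with the F98908 arrays as 1 sample, so the more frequent direction turned. Leaving out F98908 array 1 gave 257 higher and 176 lower, and leaving out its array 2 gave 267 and 176. Leaving out Cm489 array 1 gave 543 higher and 536 lower, and leaving out its array 2 gave 453 and 463. A mean over log2 8 in Cm489 with one under 4 in F98908 was found for 50 probe sets (0.444%), and 68 showed the opposite pattern. Within those 50, Cm489 means ran from 8.03 to 13.04. On both F98908 arrays 20 of the 50 lay below the highest Tag or Trp control, which zrp4 did not, and 2 had a larger gap between those arrays than zrp4.

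**Figure D2:**
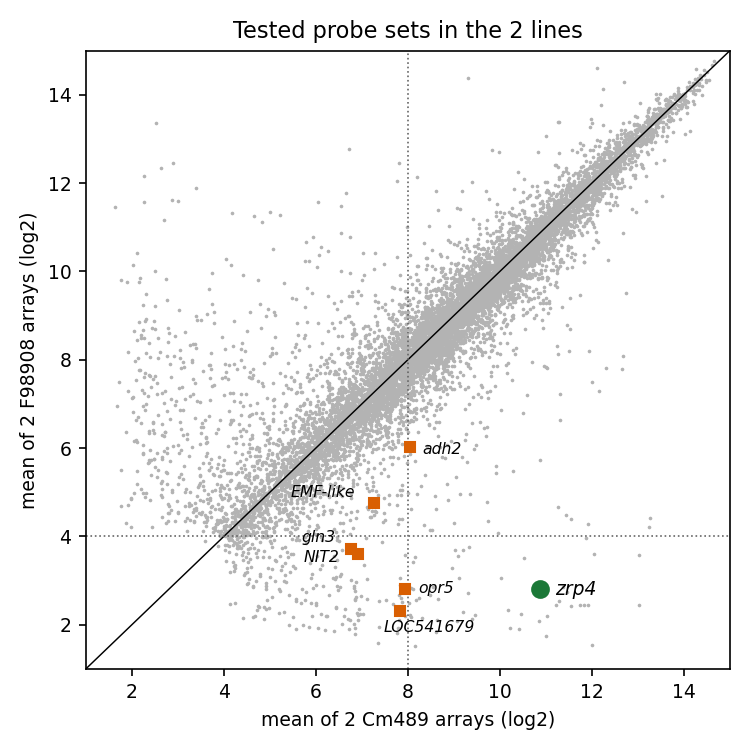
Mean log2 value of each of the 11262 tested probe sets in Cm489 (horizontal, 2 arrays) and F98908 (vertical, 2 arrays), with zrp4 as a circle and the 6 named genes most like it as squares. The dotted lines mark log2 8 in Cm489 and log2 4 in F98908; zrp4 lies in the lower right corner they form, with a mean of 10.88 and 2.81, and the squares lie to its left or above it.

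Likeness to zrp4 was measured as the Euclidean distance between the log2 values on the 4 arrays, so that both level and pattern count, and it is given without a test. Within a distance of 2 there were 17 probe sets, and all but 1 are unnamed here. The named one belongs to gst13, a glutathione transferase, which couples glutathione to reactive compounds. It read 11.70 and 11.23 in Cm489 and 2.74 and 2.73 in F98908, at a distance of 0.961. Its type (_x_at) marks probes that may cross-hybridise. The brighter gst13 probe set read 10.15 and 9.84 in Cm489 and 9.78 and 9.99 in F98908, so the 2 probe sets of that gene did not share the pattern.

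With each gene taken by its brightest probe set, the nearest named genes were much farther off, at distances of 4.41 to 6.06. LOC541679, which has no further name in the tables used, was the closest, at 8.03 and 7.63 in Cm489 and 2.26 and 2.35 in F98908. Its other probe set was near background on all arrays, at 1.69 in both lines. The next was opr5, of the oxophytodienoate reductase family, at 7.11 and 8.79 in Cm489 and 2.55 and 3.08 in F98908. Both genes shared with zrp4 a mean under log2 4 in F98908, but at a lower Cm489 level.

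NIT2, a nitrilase, read 6.60 and 7.22 in Cm489 and 3.94 and 3.28 in F98908. The glutamine synthetase gene gln3 read 6.24 and 7.29 in Cm489 and 3.64 and 3.80 in F98908. EMF-like (LOC542512) read 6.97 and 7.55 in Cm489 and 4.72 and 4.78 in F98908. The alcohol dehydrogenase gene adh2 read 8.01 and 8.07 in Cm489 and 6.29 and 5.74 in F98908. In each of these 4 genes both Cm489 arrays exceeded both F98908 arrays, but the differences, from -3.30 to -2.02, were far short of that of zrp4.

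**Figure D3:**
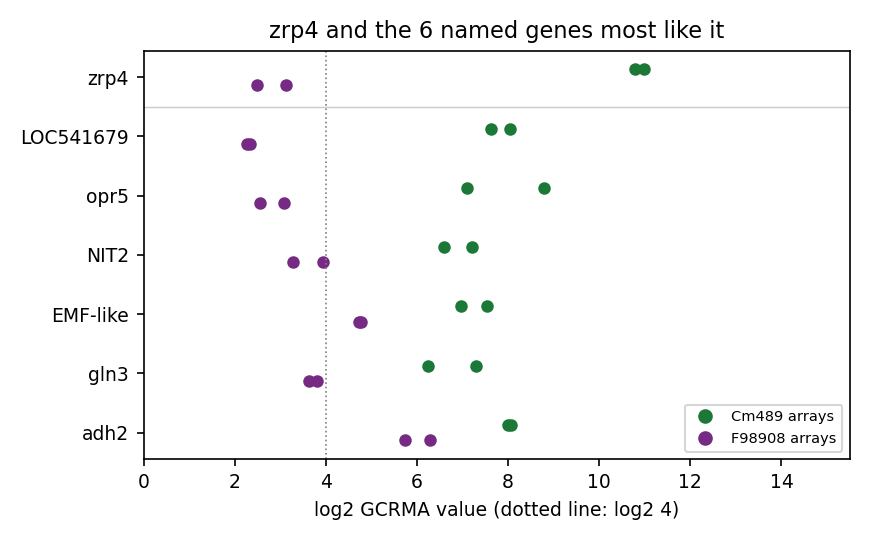
Log2 values on the 2 Cm489 arrays (green) and the 2 F98908 arrays (purple) for zrp4 and the 6 named genes nearest to it, in order of distance. All 7 genes are higher in Cm489 by the rule that chose them. The values of zrp4 are 10.99 and 10.78 in Cm489.

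Genes around zrp4 in phenolic metabolism were read from lists matched by symbol. The lists for O-methyltransferases and for root genes matched zrp4 alone among the named probe sets, so other members of these groups are not analysed here. The lists for phenylpropanoid and monolignol enzymes, methyl donor supply, suberin, cutin and wax, and flavonoid enzymes held 9 other tested genes. Limma called 0 of the 9, with 4 at an unadjusted p under 0.05, beside 15.3% and 32.4% of all tested probe sets. So few genes do not set the lists apart from those shares, which also stand behind the counts per list given next.

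In the phenylpropanoid pathway, which makes the phenolic units of lignin and suberin, 0 of 5 tested genes passed limma's test, and 2 had an unadjusted p under 0.05. Their median difference was 0.06, against -0.03 over all tested probe sets. PAL1, a phenylalanine ammonia-lyase and so the entry enzyme, read 12.89 and 12.74 in Cm489 and 12.83 and 12.77 in F98908. The gene 4CL, whose enzyme activates cinnamic acids with coenzyme A, read 9.71 and 9.38 in Cm489 and 10.18 and 10.40 in F98908. Its difference of 0.75 ± 0.17 (SE) had the opposite sign to that of zrp4 and an adjusted p of 0.0691 (limma).

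The cinnamoyl-CoA reductase gene CCR (LOC542463) read 8.53 and 8.84 in Cm489 and 9.45 and 9.26 in F98908, a difference of 0.67 ± 0.16 (SE; limma, adjusted p = 0.0778). It acts after 4CL, at the first step particular to monolignols. A related gene, ccr2, was dim, at 4.46 and 4.49 in Cm489 and 3.66 and 4.65 in F98908. BM1, the cinnamyl alcohol dehydrogenase of the last step, read 11.82 and 12.06 in Cm489 and 11.98 and 12.02 in F98908, with overlapping lines. Enzymes before and after the methylation steps were thus bright in both lines, ccr2 apart.

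Methyl groups for zrp4 come from S-adenosylmethionine, and sam2, an S-adenosylmethionine synthetase gene, was the only matched gene for its supply. It read 14.08 and 14.31 in Cm489 and 13.84 and 13.90 in F98908, near the upper end of the scale, with a difference of -0.33 ± 0.13 (SE; limma, adjusted p = 0.179). Limma called 0 of 1 gene in that list, and 0 had an unadjusted p under 0.05.

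Of the 4 genes matched to the list for suberin, cutin and wax, 2 were tested, limma called 0, and 1 had an unadjusted p under 0.05 (median difference -0.74). The wax gene gl8, whose enzyme is a ketoacyl reductase of fatty acid elongation, read 11.74 and 11.33 in Cm489 and 10.72 and 10.82 in F98908, a difference of -0.77 ± 0.18 (SE; limma, adjusted p = 0.0717). PLTP, a phospholipid transfer protein gene, read 13.26 and 12.54 in Cm489 and 12.11 and 12.28 in F98908 on its brightest probe set (adjusted p = 0.195). Another PLTP probe set went the other way, by 6.30 (adjusted p = 0.0221, and 0.0863 to 0.152 with no filter on dim probe sets, with the F98908 arrays as 1 sample, or without either F98908 array). Both are of types (_s_at and _x_at) that may read more than 1 transcript. The matched genes gl1 and gl15 were near background on all arrays. The list holds no gene of the Casparian strip or of suberin alone, so it reads mainly wax and lipid transfer.

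Among flavonoid enzymes chs1, a chalcone synthase, was the only tested gene of 3 matched, and limma did not call it (0 of 1, with 1 at an unadjusted p under 0.05). It read 10.25 and 10.23 in Cm489 and 10.63 and 10.52 in F98908, a difference of 0.33 (adjusted p = 0.119). The other matched genes, fht1 and a2, lay under log2 4 on all arrays.

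**Figure D4:**
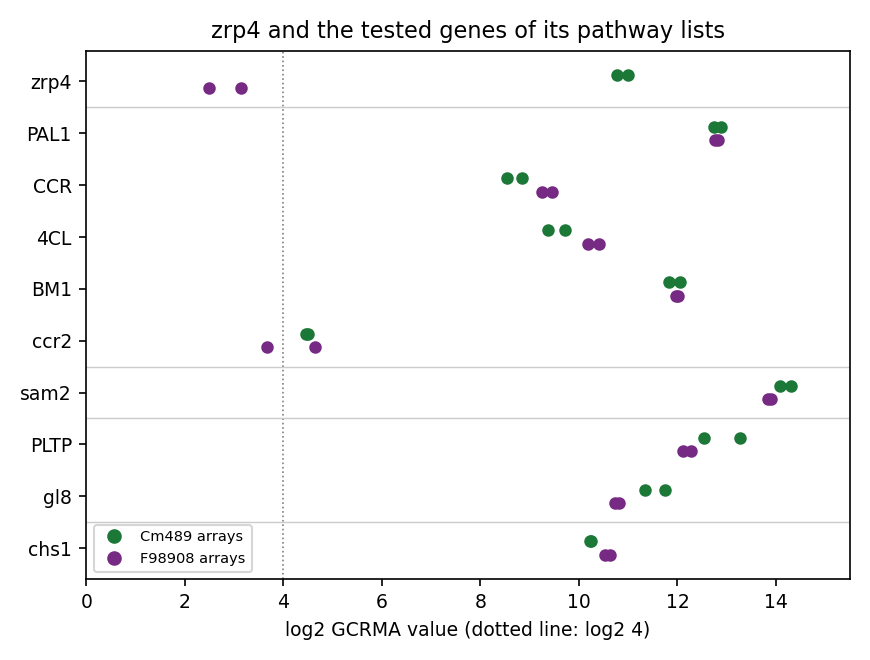
Log2 values on the 2 Cm489 arrays (green) and the 2 F98908 arrays (purple) for zrp4 and the 9 tested genes of its lists; lines part zrp4, the phenylpropanoid and monolignol enzymes, methyl donor supply, suberin, cutin and wax, and flavonoid enzymes. Apart from ccr2, the tested genes read above log2 8 on all arrays, whereas zrp4 lies at 10.99 and 10.78 in Cm489 and at 3.14 and 2.48 in F98908. The matched genes gl1, gl15, fht1 and a2 were under log2 4 on all arrays, so they were not tested and are not shown.

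A further gene with OMT in its symbol, pOMT1 (LOC542560), was looked up after the data were seen, and its enzyme is not described in the tables used. It read 8.65 and 8.23 in Cm489 and 8.46 and 8.24 in F98908, with overlapping lines (limma, difference -0.09, adjusted p = 0.788). Because Bx7 shares the name zrp4, the benzoxazinoid genes bx1 and bx6 were also looked up. The gene bx1, whose enzyme makes indole for these defence compounds, read 11.44 and 12.58 in Cm489 and 13.68 and 13.05 in F98908 (difference 1.36, adjusted p = 0.155, and 0.0422 with the array numbers crossed as a block, an alternative added after seeing the data). The later enzyme gene bx6 read 12.81 and 13.58 in Cm489 and 13.60 and 13.47 in F98908 (difference 0.33, adjusted p = 0.504), and 10.80, 11.77, 12.24 and 12.02 on its other probe set, in the same order of arrays. Neither had the pattern of zrp4.

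The nearest measured genes in the RefSeq gene order, 5 on each side of zrp4, were taken after the data were seen. Only named genes whose brightest probe set was over log2 4 on at least 2 arrays could enter. Limma called 2 of the 10 higher and 1 lower in F98908, beside 7.27% and 8.02% of all tested probe sets, and 10 genes are too few to set against those shares. The groups of arrays did not overlap in 6 of the 10, beside 63.9% of all tested probe sets. All 10 exceeded log2 4 on all 4 arrays, which zrp4 did not. Because the choice of these genes left out dim ones, this says little about the region.

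The nearest on each side both lay 14 gene positions away. Lhcb5-2, a chlorophyll-binding protein of the light-harvesting antenna, rose from 11.94 and 12.30 in Cm489 to 12.99 and 12.97 in F98908 (difference 0.86, adjusted p = 0.0468). IDI2, listed also as M1Pi, an isomerase of methionine salvage, read 10.26 and 10.68 in Cm489 and 10.47 and 10.32 in F98908 (adjusted p = 0.813). At 38 positions adh2, already named for its likeness to zrp4, fell by 2.02 ± 0.22 (SE; limma, adjusted p = 0.0155). At 149 positions on the side of Lhcb5-2, LOC542538 rose by 0.56 (adjusted p = 0.0457).

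Each of these 3 calls was lost without some single arrays. For adh2 the adjusted p was 0.0702 without Cm489 array 1, 0.0815 without Cm489 array 2 and 0.0557 without F98908 array 2. For Lhcb5-2 it was 0.0651 without Cm489 array 1, 0.245 without F98908 array 1 and 0.236 without F98908 array 2. For LOC542538 it ran from 0.0841 to 0.263 with each of the 4 arrays left out.

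The other nearby genes did not pass. SIP1-1, a small basic intrinsic aquaporin, differed by 0.08 (adjusted p = 0.866), and GIF2, a coactivator of growth-regulating factors, by -0.23 (adjusted p = 0.377). The protein disulfide isomerase gene pdi differed by -0.19 (adjusted p = 0.340) and the plastid sigma factor gene ZmSig2A by 0.32 (adjusted p = 0.443). The homeodomain gene ocl5 read 8.69 and 4.36 on the 2 Cm489 arrays and 7.02 and 7.61 on those of F98908, so its Cm489 arrays differed from each other more than the lines did (adjusted p = 0.772). Of the 10 genes, bx1 was the farthest on its side.

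**Figure D5:**
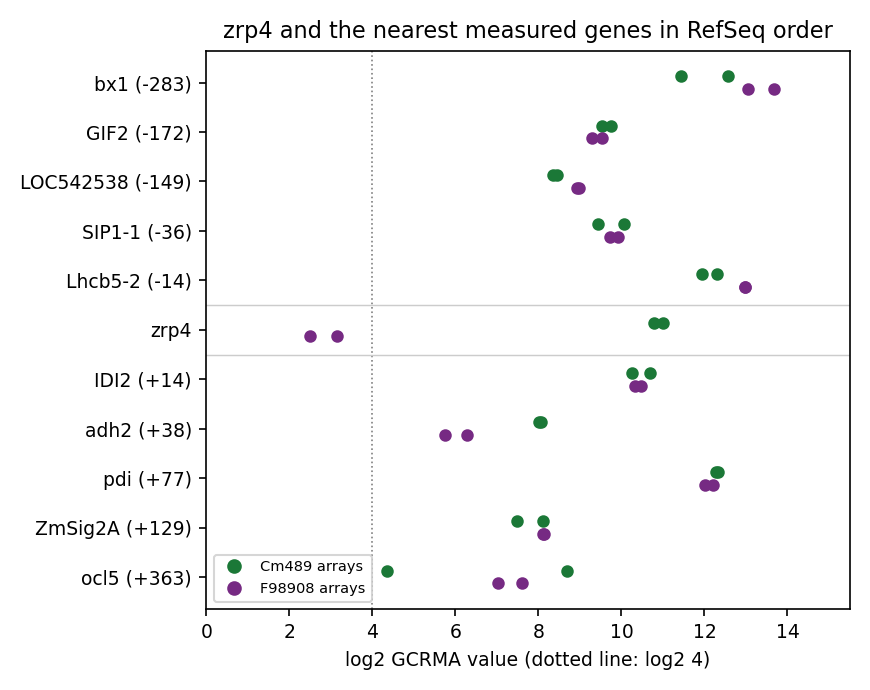
Log2 values on the 2 Cm489 arrays (green) and the 2 F98908 arrays (purple) for zrp4 and the 5 nearest measured genes on each side in the RefSeq gene order, with the number of gene positions from zrp4 in brackets. The flanking genes, chosen among genes over log2 4 on at least 2 arrays, stay above it on every array. Among them adh2, at +38, shows the largest called difference, -2.02.

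The aerial label was set against leaf markers matched by symbol. The bundle sheath gene rbcS, the small subunit of Rubisco, read 11.94 and 12.28 in Cm489 and 11.77 and 11.53 in F98908. On its brightest probe set the mesophyll gene pdk1 of C4 photosynthesis read 9.38 and 8.88 in Cm489 and 9.76 and 9.69 in F98908. The other probe sets of pdk1 were dimmer, with means from 1.70 to 6.04 in Cm489 and from 1.70 to 6.28 in F98908. The malate dehydrogenase gene mdh6 was above log2 8 on every array and rca1, Rubisco activase, above log2 6. The defining C4 markers pep1 and me3 were dim on their single probe sets. The gene pep1, phosphoenolpyruvate carboxylase, read 5.44 and 1.91 in Cm489 and 1.86 and 1.86 in F98908. The gene me3, NADP-malic enzyme, had a mean of 2.99 in both lines. Limma called 0 of 3 tested mesophyll genes and 0 of 2 tested bundle sheath genes, with 2 and 0 at an unadjusted p under 0.05, beside 15.3% and 32.4% of all tested probe sets. The 3 mesophyll matches include PDK1 (LOC541677), a kinase gene that shares the symbol alone. Root RNA as a source of the Cm489 signal was not tested, since the root list holds no gene but zrp4.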

How the data were processed

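Biotin-labelled RNA of 4 samples was hybridised to Affymetrix maize arrays, with 20 ug of cRNA and 2 arrays per line, grouped by the line label. The deposited log2 values come from GCRMA, as the submitters' processing notes state without a version; it corrects background, normalises arrays to a common distribution and summarises probes per probe set, which removes differences in total output. Of 17734 probe sets, 113 array controls and 66 reporter probe sets were left out. A probe set was tested if over log2 4 on at least 2 arrays, which kept 11262.

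The line difference was fitted in R 4.3.3 by limma 3.58.1 (eBayes, two-sided, Benjamini-Hochberg over all tested probe sets, threshold 0.05, 1.79 prior and 2 residual degrees of freedom), checked on simulated data. The simulated arrays were independent, so that check does not cover F98908 arrays that may share an extract. An exact permutation test of 2 against 2 arrays cannot go below p = 0.333. The number of arrays limits the precision.

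Names came from the platform annotation, updated by gene number to RefSeq (Zm-B73-REFERENCE-NAM-5.0): 1452 probe sets have 1 symbol, 1 has several and 16102 are unnamed here, and 1060 of 1108 named genes matched. No build is named for the values, so no positions are printed. Each gene was taken by its brightest probe set. The gene, lists and tests were chosen with earlier results of these data known. The naming rule took zrp4, the 6 named genes nearest to it, list members by p, and proteins most like zrp4, for which no sequences were used here; gst13, pOMT1, bx1, bx6 and the flanking genes fall outside it, and so do the leaf markers named. Kernel markers were matched too: limma called 0 of 2 tested genes (1 at an unadjusted p under 0.05), beside 15.3% and 32.4% of all tested probe sets. So few genes cannot be set against those shares. Alternatives changed the filter, floor, prior, scaling, probe set types, replicate block, F98908 sample number and each array.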

Additional observations from a re-analysis of the deposited data

How the results depend on the processing

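The zrp4 difference stayed at -8.07 under changes that keep its values, was -8.04 with each array centred on its median, and ran from -8.40 to -7.75 with single arrays left out. Setting values under log2 4 to 4 gave -6.88, since both F98908 values lie under it. The 1722 calls over all probe sets became 1130 of the probe sets with a mean over log2 6, 418 with the F98908 arrays averaged to 1 sample, and 433 to 1079 with single arrays left out. With the replicate number as a block, 780 were called and 0 list members were called. The zrp4 difference stayed at -8.07, which such a block cannot change, since each line has an array of each number. The sample labels used here name no batch that same-numbered arrays share. Deviations of same-numbered arrays correlated at -0.36 over the tested probe sets, so arrays of unlike number tended to deviate together. With the numbers crossed, chosen after seeing the data, there were 1853 calls and 2 list members, 4CL and CCR, were called, both higher in F98908, as was bx1 (adjusted p = 0.0415, 0.0473 and 0.0422); in all other alternatives limma called 0. Centring gave 870 higher and 845 lower, against 819 and 903.

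Directions near 0 turned for uncalled genes: with centring PAL1 was at 0.0170 and PDK1 at 0.0196. With single arrays left out, PAL1 ran from -0.0918 to 0.0576, BM1 from -0.0554 to 0.18, ccr2 from -0.82 to 0.17, pOMT1 from -0.30 to 0.12, bx6 from -0.0542 to 0.72, IDI2 from -0.29 to 0.13, SIP1-1 from -0.23 to 0.38, ocl5 from -1.38 to 2.95, rca1 from -0.56 to 0.64, PDK1 from -0.10 to 0.0751 and the brighter gst13 probe set from -0.26 to 0.0451. Lhcb5-2 and LOC542538 were not called with the F98908 arrays as 1 sample (adjusted p = 0.246 and 0.257), with the replicate block (0.120 and 0.177) or with it crossed (0.0542 and 0.0568). Without a filter, Lhcb5-2 (0.107) and adh2 (0.0600) were not called. Values near background have no reliable order.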
